A study of Mus musculus with 8 samples.

Results

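Spiral ganglion neurons carry sound signals from hair cells to the brainstem, and 9 genes linked to their axons were followed through sorted cells of the neonatal mouse cochlea. The genes are *Nefl*, *Nefm* and *Nefh* (the light, medium and heavy neurofilament subunits), *Ina* (alpha-internexin), *Prph* (peripherin), *Gap43*, *Uchl1*, *Elavl4* and *Mapk10*. They were chosen with earlier results of these data known and were found by symbol in the NCBIM37 gene annotation. Each of the 9 symbols matched 1 of the 36536 Ensembl genes in the count tables. The first 5 encode intermediate filament proteins and the other 4 do not: *Gap43* encodes a membrane protein of growth cones, *Uchl1* a ubiquitin hydrolase, *Elavl4* an RNA-binding protein and *Mapk10* the kinase JNK3. In these libraries *Uchl1* went against the neuronal label, since it was highest in the GFP+ cells.

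The study asked which transcripts mark cochlear supporting cells as they mature in the first postnatal week. All mice carried the *Lfng-GFP* BAC transgene (B6;FVB-Tg(Lfng-EGFP)HM340Gsat/Mmucd), in which *Lfng* regulatory sequence drives GFP in Deiters' cells, outer pillar cells and the border and inner phalangeal cells around the inner hair cells, but not in inner pillar cells. Cochleas of postnatal day 1 (P1) and day 6 (P6) were dissected, dissociated and sorted with neither culture nor treatment, and 2 replicate libraries were made from the GFP+ and from the GFP- cells of each age, 8 in all. Only the brightest GFP+ cells were collected, cells of low GFP were left out of both fractions, and the GFP- fraction mixes many other cell types of the dissected tissue. Each library pools cells of many cochleas. The cochlear duct was peeled off the modiolus, where the neuron cell bodies lie, at P1 and was cut from it at P6, so the neuronal share of a GFP- library depends on that step and age cannot be told apart from the dissection. Nothing in the labels ties replicates to separate litters or days, so p-values measure the spread between these libraries only. The libraries held 17769024 to 67695039 counts on genes, and a level is given as CPM, the count of a gene scaled by that total of its library.

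Neurofilaments are heteropolymers that fill the axon and set its calibre, with the light subunit as the core and the medium and heavy subunits carrying long phosphorylated tails. Alpha-internexin and peripherin join the same polymers, and in the cochlea peripherin is best known from the type II spiral ganglion neurons that innervate outer hair cells. GAP43 is abundant while axons grow, ELAVL4 (HuD) stabilises neuronal mRNAs, and the UCHL1 protein, also called PGP9.5, is widely used as a neuronal stain.

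The promoters of *Prph* and *Ina*, 2 filament genes that were lower in the GFP+ cells at P1, and of *Uchl1*, which was higher there, are shown so that they can be read beside the counts. The sequences come from RefSeq (GRCm38.p6), in which 5 of the 9 genes were matched by symbol: these 3, *Elavl4* with 4 windows and *Mapk10* with 2. Each is a 300-base window, mostly upstream of the transcription start, on the plus strand: chr15:99054924-99055223 for *Prph*, chr19:47014431-47014730 for *Ina* and chr5:66675871-66676170 for *Uchl1*. Capitals mark matches on either strand to a TATA box (TATAAA), a GC box (GGGCGG, which reads CCGCCC on the other strand) or a CCAAT box (CCAAT).
Prph: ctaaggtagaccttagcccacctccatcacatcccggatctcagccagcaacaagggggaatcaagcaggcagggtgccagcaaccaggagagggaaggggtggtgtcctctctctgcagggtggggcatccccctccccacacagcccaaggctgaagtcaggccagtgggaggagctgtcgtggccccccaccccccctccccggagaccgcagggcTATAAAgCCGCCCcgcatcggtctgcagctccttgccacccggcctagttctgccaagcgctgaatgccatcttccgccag
Ina: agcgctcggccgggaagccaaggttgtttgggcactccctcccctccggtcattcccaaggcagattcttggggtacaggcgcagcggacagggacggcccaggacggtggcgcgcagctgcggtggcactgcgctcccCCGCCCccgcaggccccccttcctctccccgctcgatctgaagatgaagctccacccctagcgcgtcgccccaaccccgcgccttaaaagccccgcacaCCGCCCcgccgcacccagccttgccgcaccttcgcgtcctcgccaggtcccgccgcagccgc
Uchl1: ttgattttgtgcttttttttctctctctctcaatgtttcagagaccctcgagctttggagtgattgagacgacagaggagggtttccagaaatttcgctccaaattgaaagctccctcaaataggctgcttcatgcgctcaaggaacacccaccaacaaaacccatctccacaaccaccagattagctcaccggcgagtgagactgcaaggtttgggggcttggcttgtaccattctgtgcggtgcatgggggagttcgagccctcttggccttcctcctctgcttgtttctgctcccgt
The *Prph* window has a TATA box that starts at position -31 from the transcription start and a GC box at position -24. The *Ina* window has GC boxes at positions -111 and -12 and no TATAAA. None of these 3 motifs was found in the *Uchl1* window, which has a G and C content of 50.7% against 64.7% for *Prph* and 71.7% for *Ina*. Over the 32817 windows of this length in the table, 13.6% hold TATAAA, 35.6% GGGCGG and 37.4% CCAAT. An E-box (CANNTG) was found in the *Ina* window, at position -135, and in neither of the others, while 72.3% of all windows hold one. The cyclic AMP response element TGACGTCA (1.79% of windows) and the left and right parts of the REST site, TTCAGCACC (0.372%) and GGACAGC (6.56%), were in none of the 3. These are letter matches in short windows and not measured binding sites.

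In the NCBIM37 annotation the neurofilament genes *Nefl* (chromosome 14, 68701920 to 68707152, plus strand) and *Nefm* (chromosome 14, 68700647 to 68742903, minus strand) overlap. Exon 4 of a putative second *Nefm* transcript (68700647 to 68703027) runs across 1108 bases of *Nefl* exon 1, which are 32.8% of the exon bases of *Nefl* and 19.2% of those of *Nefm*. The library kit does not mark strand, so reads in that stretch cannot be given to either gene, and *Nefl* and *Nefm* values are uncertain to that extent. *Ina* (chromosome 19, 47089188 to 47099817) shares 456 exon bases, 14.1%, with *Nt5c2*, and *Uchl1* (chromosome 5, 67067360 to 67078472) shares 214, 18.7%, with the lincRNA *Gm16832*. *Nefh* (chromosome 11, 4838757 to 4848067), *Prph* (chromosome 15, 98885605 to 98889409), *Gap43* (chromosome 16, 42248555 to 42340764), *Elavl4* (chromosome 4, 109876327 to 110024514) and *Mapk10* (chromosome 5, 103336967 to 103640353) share no exon base with another gene.

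The libraries were first checked against marker genes. All 7 supporting cell markers, *Lfng* among them, were past the criteria (p and adjusted p below 0.01 and a fold change above 4) in GFP+ over GFP- cells at both ages. Of all genes tested, 6.46% were past them as higher at P1 and 4.88% at P6. Of the neuronal markers, *Slc17a6* and *Slc17a7*, the vesicular glutamate transporters, were detected in every library, and *Neurod1*, a neuronal differentiation factor, was at or near 0 (at most 0.666 CPM). *Isl1*, also on the neuronal list, was higher in GFP+ cells at both ages (log2 fold change 2.01 at P1 and 2.14 at P6) and *Pou4f1* did not pass at either. The 2 replicates of a group were not alike in all respects, and 2 libraries stood apart. P1 GFP- replicate 2 was richer than replicate 1 in neuronal and supporting cell transcripts: 12 of 14 spiral ganglion markers were higher there, by a median of 1.31 on the log2 scale, while the median of 9 glial markers differed by 0.11 and that of 6 mesenchyme markers by -0.18. All 7 supporting cell markers were higher there as well, by a median of 0.80. P6 GFP+ replicate 2 was richer than replicate 1 in markers of several GFP- cell types, with a median log2 difference of 1.80 for mesenchyme, 1.10 for glia and 0.78 for spiral ganglion markers.

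The levels of the genes are given for replicates 1 and 2 of a group in turn. *Nefl* was at 10.1 and 10.2 CPM in P1 GFP+, 32.2 and 117 in P1 GFP-, 8.33 and 12.5 in P6 GFP+ and 26.0 and 17.8 in P6 GFP- cells. *Nefm* was at 22.1 and 23.9, 55.2 and 181, 9.85 and 17.2, and 33.2 and 21.6 CPM in the same order of groups. Both genes were lower in GFP+ than in GFP- cells at either age with no overlap of the libraries, and both were at their highest in P1 GFP- replicate 2.

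*Nefh* was at 2.36 and 2.37 CPM in P1 GFP+, 15.7 and 61.1 in P1 GFP-, 6.70 and 19.3 in P6 GFP+ and 34.6 and 24.5 in P6 GFP- cells. Both of its P6 GFP+ libraries lay above both P1 GFP+ libraries, which was not so for *Nefl*, *Nefm* or *Ina*. *Prph* and *Mapk10* shared this trait, as did 29.3% of all genes tested. *Ina* was at 3.32 and 3.66, 27.1 and 94.2, 2.76 and 6.29, and 12.7 and 8.29 CPM, with the P1 GFP- libraries above all the others.

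*Prph* had the fewest counts of the 5 filament genes, at 0.327 and 0.281 CPM in P1 GFP+, 3.01 and 8.40 in P1 GFP-, 0.506 and 0.603 in P6 GFP+ and 0.438 and 0.384 in P6 GFP- cells. These values rest on 15 and 7, 114 and 530, 9 and 18, and 27 and 26 counts. Outside the P1 GFP- libraries the exact Poisson 95% intervals of the single libraries all overlap, from 0.113 to 0.579 CPM in P1 GFP+ replicate 2 and from 0.357 to 0.952 in P6 GFP+ replicate 2, and such intervals cover counting error only. *Prph* was thus well above this low level in a single group, the P1 GFP- cells.

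*Gap43* was at 2.14 and 2.01 CPM in P1 GFP+, 24.3 and 56.3 in P1 GFP-, 1.46 and 2.58 in P6 GFP+ and 8.33 and 8.27 in P6 GFP- cells. *Elavl4* was at 5.13 and 4.54, 20.1 and 66.5, 1.29 and 3.58, and 11.0 and 7.92 CPM. *Mapk10* was at 3.03 and 4.26, 8.47 and 22.4, 5.74 and 6.13, and 7.00 and 5.32 CPM, and its P6 groups overlapped. For *Gap43* and *Elavl4* the GFP- cells were the higher group at both ages.

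*Uchl1* was at 581 and 633 CPM in P1 GFP+, 30.1 and 97.7 in P1 GFP-, 502 and 319 in P6 GFP+ and 32.3 and 25.2 in P6 GFP- cells. The GFP+ libraries were the higher ones at both ages, with no overlap. Its highest GFP- value was again that of P1 GFP- replicate 2, where 7 of 7 supporting cell markers and 12 of 14 spiral ganglion markers were also above replicate 1. Of 12 hair cell markers, 10 were higher in GFP+ cells at an adjusted p below 0.05 at each age, beside 25.5% of all genes tested at P1 and 15.5% at P6. Their summed level was 790.5 to 918 CPM against 412 to 475 at P1 and 471 to 573 against 352 to 394 at P6. *Myo6*, by which together with *Prox1* the study checked its sorting gate, was higher at P1 (log2 fold change 0.39, edgeR adjusted p = 0.0315) and did not pass at P6 (-0.19, adjusted p = 0.510). By in situ hybridization the study scored *Uchl1* in supporting cells at both ages and did not list hair cells for it. The part of hair cells in the *Uchl1* level of these libraries was not tested.

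**Figure D1:**
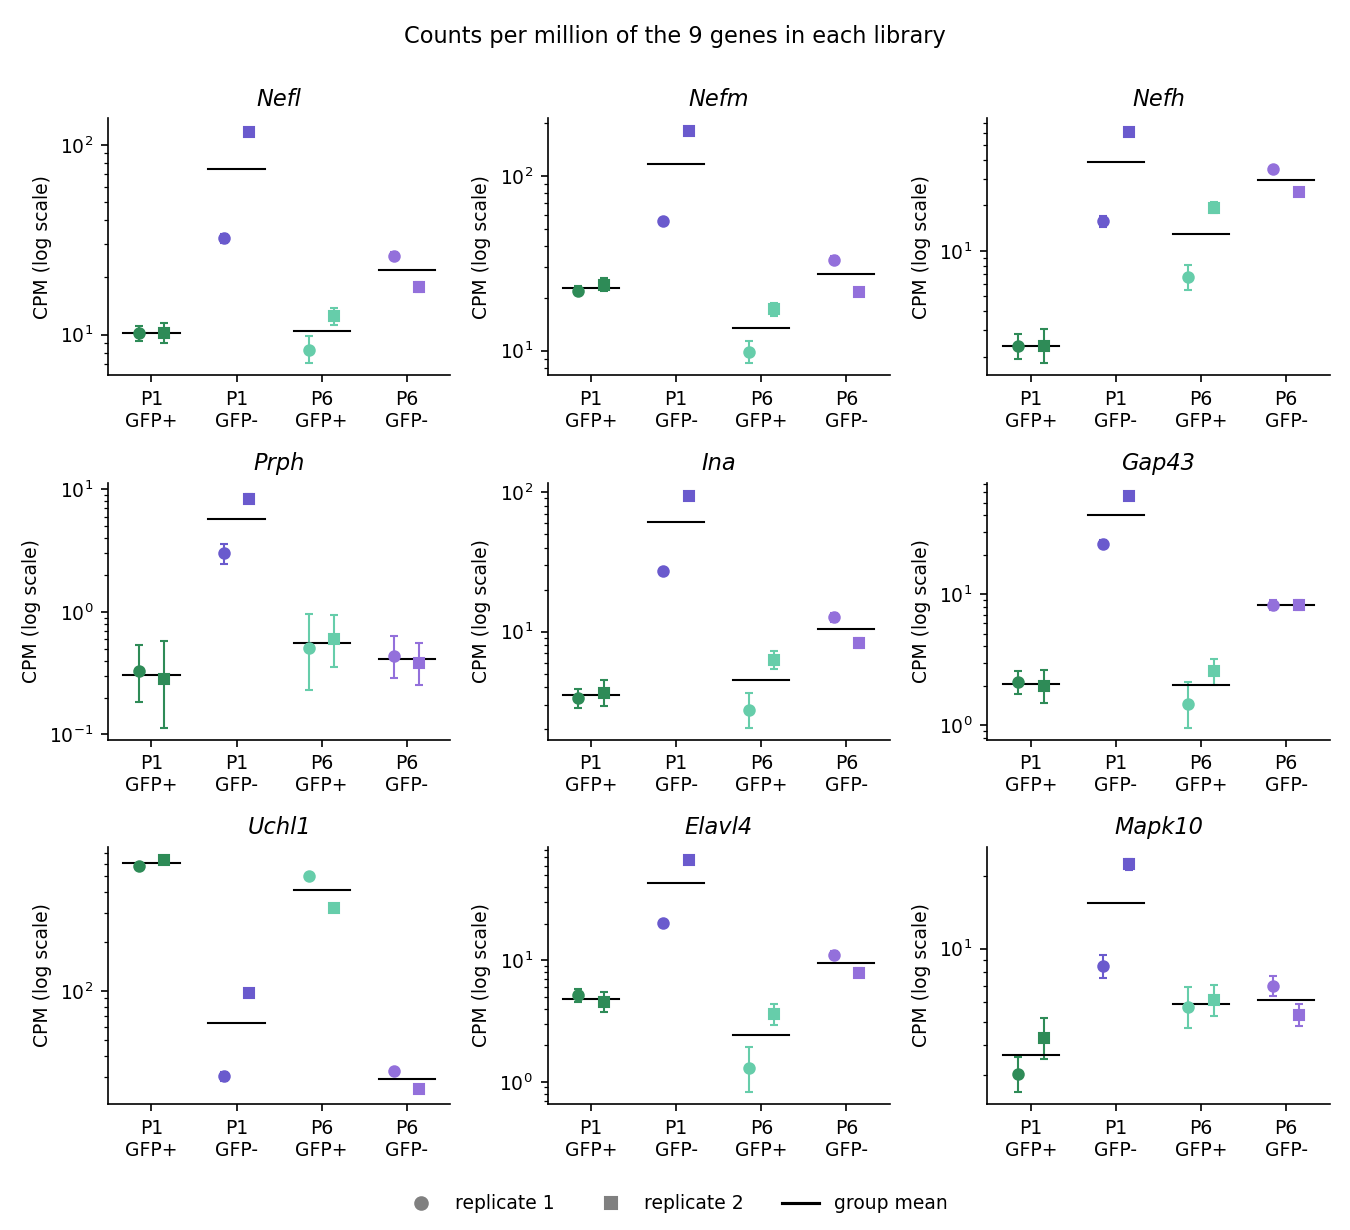
CPM of each gene in the 8 libraries, on a log scale with a separate range per panel; circles and squares are replicates 1 and 2, vertical bars are exact Poisson 95% intervals and black lines are group means. For 8 of the genes the highest library is P1 GFP- replicate 2, and for *Uchl1* the 4 GFP+ libraries (319 to 633 CPM) lie above the 4 GFP- libraries (25.2 to 97.7 CPM).

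Levels of different genes were compared per length, as RPKM, which is the CPM of a gene divided by the kilobases of all its annotated exons. The orders given hold for that length. *Uchl1* ranked first in all 4 groups, at a mean of 530 ± 32.1 RPKM (SD, n = 2) in P1 GFP+ cells, 55.7 ± 41.7 in P1 GFP- cells, 358 ± 113 in P6 GFP+ cells and 25.1 ± 4.39 in P6 GFP- cells. In P1 GFP+ cells the order below it was *Nefm* (3.98 RPKM), *Nefl* (3.01), *Gap43* (1.36), *Ina* (1.08), *Elavl4* (0.897), *Nefh* (0.592), *Mapk10* (0.327) and *Prph* (0.163), and no neighbours in that order overlapped. The P1 GFP- order began with *Gap43* (26.5), *Nefl* (22.1), *Nefm* (20.4) and *Ina* (18.7), followed by *Nefh* (9.62), *Elavl4* (8.03), *Prph* (3.06) and *Mapk10* (1.38), and every pair of neighbours, *Uchl1* and *Gap43* included, overlapped between the replicates.

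At P6 *Nefh* moved up the per-length order. It stood at 3.26 ± 2.23 RPKM in GFP+ cells and 7.41 ± 1.79 in GFP- cells, next to *Nefl* at 3.08 ± 0.870 and 6.48 ± 1.70, with overlap in both fractions. *Nefm* was at 2.34 and 4.74 RPKM, *Ina* at 1.397 and 3.24, *Gap43* at 1.33 and 5.45, *Elavl4* at 0.453 and 1.75, *Mapk10* at 0.532 and 0.552, and *Prph* at 0.297 and 0.220. In P6 GFP- cells *Uchl1*, *Ina*, *Elavl4* and *Mapk10* were each above the next gene without overlap. The places of several genes rest on the length used. With its longest transcript in place of all annotated exons *Nefm* would stand at 7.45 RPKM in P6 GFP- cells, level with *Nefh*. That longest transcript is the putative one that overlaps *Nefl*. The known *Nefm* transcript is shorter and would give a higher value. By longest transcripts *Nefm* would stand above *Nefh* in P6 GFP+ cells and above *Gap43* in P1 GFP- cells. *Elavl4* would stand above *Ina* in P1 GFP+ cells and, at 10.4 RPKM, above *Nefh* in P1 GFP- cells. *Gap43*, at 1.42 RPKM, would stand above *Ina* in P6 GFP+ cells. *Nefl* was divided by all its exon bases, although reads in the stretch shared with *Nefm* cannot be given to either gene. Its RPKM may therefore be too low, and its places beside *Nefm* and *Nefh* are uncertain.

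At P1, 8 of the 9 genes were lower in GFP+ than in GFP- cells and *Uchl1* was higher. *Gap43* (log2 fold change -4.17 ± 0.441, standard error), *Prph* (-4.09 ± 0.611), *Ina* (-4.02 ± 0.613) and *Nefh* (-3.92 ± 0.665) differed most, by 15.1-fold to 17.9-fold, with edgeR adjusted p from 0.000575 to 0.00395. Without P1 GFP- replicate 2 these log2 values were -3.44, -3.17, -2.87 and -2.64. *Elavl4* (-3.05 ± 0.561, adjusted p = 0.00545) and *Nefl* (-2.77 ± 0.581, adjusted p = 0.00902) were also past the criteria. *Nefm* (-2.26 ± 0.519, adjusted p = 0.0128) and *Mapk10* (-2.00 ± 0.471, adjusted p = 0.0141) passed only an adjusted p below 0.05. *Uchl1* was 10.2-fold higher in GFP+ cells (3.35 ± 0.526, adjusted p = 0.00287). In bulk samples such as these, fewer cells of a type and less RNA per cell cannot be told apart.

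Thus 6 of the 9 genes were past the criteria as lower and 1 as higher at P1, where 11.4% and 6.46% of the 18682 genes tested were. At an adjusted p below 0.05 the counts were 8 and 1, beside 28.1% and 25.5% of all genes. The median log2 fold change was -3.05 for the 9 genes and 0.01 for all genes tested. The libraries did not overlap for 8 lower genes and 1 higher, beside 44.9% and 34.5% of all genes. Each library was then left out in turn. *Nefl* ran from -3.45 to -1.57, *Nefm* from -2.90 to -1.17 and *Mapk10* from -2.57 to -1.15. For these genes the value nearest 0 came without P1 GFP- replicate 2, the library richer in neuronal transcripts. All 9 directions were kept in each of these fits, but which genes passed depended on the library left out.

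At P6 the difference held for fewer of the genes. *Gap43* was 4.07-fold lower in GFP+ cells (log2 fold change -2.02 ± 0.339, edgeR adjusted p = 0.00954) and *Uchl1* 14.2-fold higher (3.83 ± 0.318, adjusted p = 0.00145), and both were past the criteria. *Elavl4* (-1.93 ± 0.487, adjusted p = 0.0308) and *Nefl* (-1.08 ± 0.292, adjusted p = 0.0375) were lower at an adjusted p below 0.05. The other filament genes did not pass, with *Nefm* at -1.02 ± 0.337 (adjusted p = 0.0656), *Ina* at -1.21 ± 0.442 (0.0866), *Nefh* at -1.19 ± 0.480 (0.111) and *Prph* at 0.44 ± 0.423 (0.471). *Mapk10* was at -0.06 ± 0.271 (adjusted p = 0.883), and its direction turned without P6 GFP+ replicate 1 (0.02) or without P6 GFP- replicate 1 (0.21).

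Past the criteria were therefore 1 lower and 1 higher of the 9 genes at P6, beside 3.10% and 4.88% of the 18294 genes tested, and at an adjusted p below 0.05 the counts were 3 and 1, beside 17.9% and 15.5%. The libraries did not overlap for 6 genes that were lower in GFP+ cells and for 2 that were higher, *Uchl1* and *Prph*, beside 37.6% and 35.7% of all genes tested. The median log2 fold change was -1.08 for the 9 genes and -0.02 for all genes. The lower calls did not hold when either P6 GFP- library was left out. *Gap43* was then at nearly the same log2 fold change, -1.97 without replicate 1 and -2.06 without replicate 2. In the same order *Elavl4* was at -1.63 and -2.18 and *Nefl* at -0.73 and -1.34. Without P6 GFP+ replicate 1 and replicate 2 in turn, *Nefm* was at -0.65 and -1.46. *Nefh* was then at -0.59 and -2.12 and *Ina* at -0.71 and -1.91. *Uchl1* ran from 3.50 to 4.14 over all these fits, and which genes passed depended on the library left out.

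**Figure D2:**
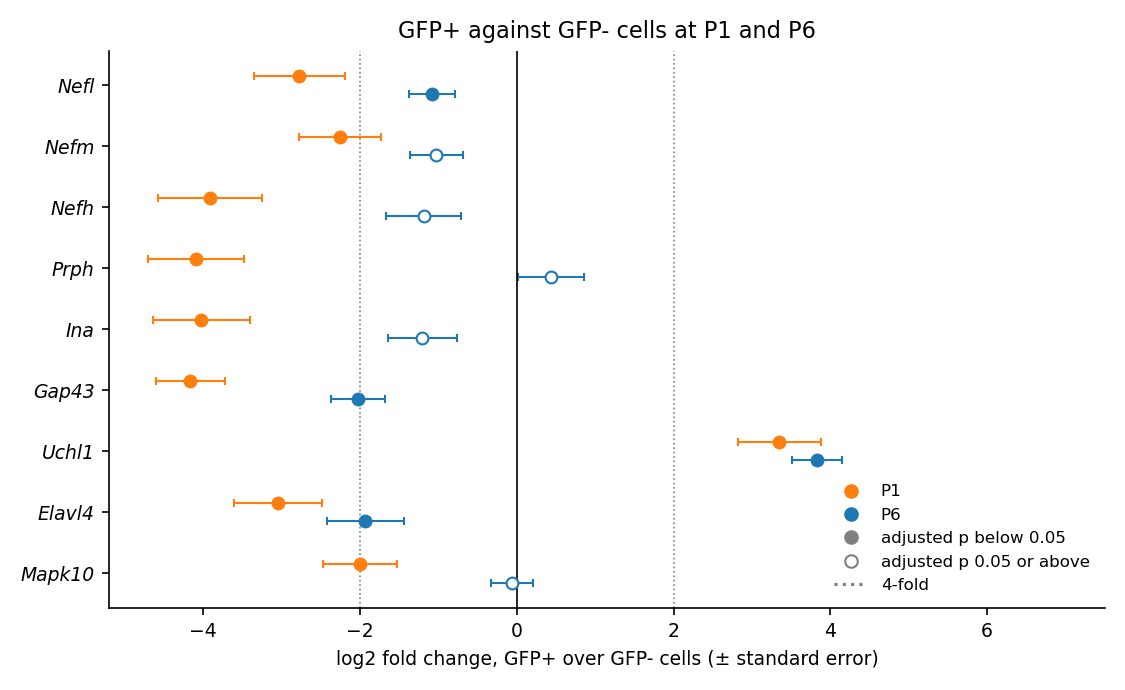
Log2 fold change of GFP+ over GFP- cells for each gene at P1 and P6, with the standard error of the edgeR fit as horizontal bars; filled points have an adjusted p below 0.05 and dotted lines mark a 4-fold change. The 8 genes other than *Uchl1* span -4.17 to -2.00 at P1, where all are filled, and -2.02 to 0.44 at P6, where 3 are, and *Uchl1* lies at 3.35 and 3.83.

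Whether the GFP+ to GFP- ratio itself changed with age was asked of all 8 libraries in a single fit, through its age by fraction term. *Prph* was the gene that passed, with a ratio 23.0-fold higher at P6 than at P1 (log2 difference 4.52 ± 0.810, edgeR adjusted p = 0.0173). For 3.60% of the 19233 genes tested the ratio was higher at P6 and for 2.79% it was lower. *Ina* (2.81 ± 0.826, adjusted p = 0.0889), *Nefh* (2.72 ± 0.920, 0.132), *Gap43* (2.14 ± 0.577, 0.0696), *Mapk10* (1.92 ± 0.610, 0.112), *Nefl* (1.68 ± 0.738, 0.241), *Nefm* (1.22 ± 0.714, 0.382), *Elavl4* (1.13 ± 0.818, 0.489) and *Uchl1* (0.47 ± 0.673, 0.745) did not pass. Over the fits that each left out 1 library, the *Prph* difference ran from 3.68 to 5.10. *Prph* did not pass in all of them, and which other genes passed changed with the library left out.

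Over the 8 genes other than *Uchl1*, the mean level in GFP+ cells was a median of 8.66% of that in GFP- cells at P1 (5.15% to 23.6%) and 45.7% at P6 (24.3% to 135%). For the 6 mesenchyme markers these medians were 3.34% and 11.6%, for the 14 spiral ganglion markers 7.53% and 40.2%, and for the 9 markers of Schwann and satellite glia 24.0% and 103.3%. These medians moved with single libraries. Without P1 GFP- replicate 2 the P1 median was 19.6% for the 8 genes (8.54% to 43.0%), 17.3% for the spiral ganglion, 24.6% for the glial and 2.95% for the mesenchyme markers, and without P1 GFP- replicate 1 it was 5.57% for the 8 genes. Without P6 GFP+ replicate 2 the P6 medians were 31.1%, 29.3%, 63.6% and 5.06% in the same order. The summed level of the spiral ganglion markers was 363 to 384 CPM in P1 GFP+, 438 to 779 in P1 GFP-, 407 to 435 in P6 GFP+ and 427 to 473 in P6 GFP- libraries. *Isl1* alone gave 240.3 to 292 CPM of this in the GFP+ libraries, and *Neurod1* was at 0 in both P6 GFP+ libraries. The summed level of the glial markers was 499 to 652 CPM in P1 GFP+, 919 to 994 in P1 GFP-, 1441 to 2635 in P6 GFP+ and 1569.8 to 1797 in P6 GFP- libraries. *Sox10* alone gave 275 to 286 CPM of this in P1 GFP+ and 306 to 340 in P6 GFP+ libraries. It was higher in GFP+ than in GFP- cells at both ages (log2 fold change 1.31 and 1.82), as *Fabp7* was at P6 (1.77). At an adjusted p below 0.05, 6 of the 9 glial markers were lower and 1 higher in GFP+ cells at P1, and 0 and 2 at P6. Over all genes tested 28.1% were lower and 25.5% higher at P1, and 17.9% and 15.5% at P6. The summed level of the mesenchyme markers was 186 to 203, 8335 to 9606, 565 to 2084 and 12851 to 12961 CPM in the same order of groups, and none of the glial or mesenchyme markers was at 0 in both libraries of a group. The part of such cells in the GFP+ values of the 9 genes was not tested. *Tubb3*, the neuronal beta-tubulin, did not follow the filament genes: it was at 5.48 and 4.38 CPM in P1 GFP+, 25.9 and 101 in P1 GFP-, 35.2 and 28.2 in P6 GFP+ and 18.2 and 12.6 in P6 GFP- cells, lower in GFP+ cells at P1 (log2 fold change -3.56, adjusted p = 0.00520) and higher at P6 (1.03, adjusted p = 0.0281).

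From P1 to P6 in GFP+ cells, *Nefh* was the gene that rose, 5.84-fold (log2 fold change 2.55 ± 0.521, edgeR adjusted p = 0.0296). None of the 9 genes was past the criteria, beside 1.63% of the 17213 genes tested that were higher at P6 and 0.930% that were lower, and 1 was higher and 0 lower at an adjusted p below 0.05, beside 12.1% and 8.31%. At an unadjusted p below 0.05, 2 genes were higher (*Nefh* and *Mapk10*) and 0 lower, beside 21.1% and 17.1% of all genes. The other values were 0.94 ± 0.426 for *Prph*, 0.80 ± 0.272 for *Mapk10*, 0.48 ± 0.420 for *Ina*, 0.12 ± 0.244 for *Nefl*, 0.06 ± 0.366 for *Gap43*, -0.46 ± 0.256 for *Uchl1*, -0.67 ± 0.274 for *Nefm* and -0.88 ± 0.482 for *Elavl4*. Libraries of the ages did not overlap for 3 genes that were higher at P6 (*Nefh*, *Prph* and *Mapk10*) and 3 that were lower (*Nefm*, *Uchl1* and *Elavl4*), beside 29.3% and 41.1% of all genes, and the median log2 fold change was 0.12 beside 0.00 for all genes. Without P1 GFP+ replicate 2 *Nefh* was at 2.52 and did not pass. Without P6 GFP+ replicate 2, the library with more markers of GFP- cell types, it was at 1.62, and *Nefl*, *Ina* and *Gap43* were then at -0.17, -0.21 and -0.39. Over all fits that left out 1 library *Nefh* ran from 1.62 to 3.09, and which genes passed depended on the library left out.

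In GFP- cells 5 genes fell from P1 to P6 at an adjusted p below 0.05. *Prph* fell 12.2-fold (log2 fold change -3.61 ± 0.533, edgeR adjusted p = 0.00564) and *Gap43* 4.25-fold (-2.09 ± 0.359, 0.00960), both past the criteria. *Ina* (-2.34 ± 0.540, 0.0270), *Elavl4* (-2.00 ± 0.506, 0.0362) and *Nefm* (-1.91 ± 0.508, 0.0424) passed at 0.05 only. *Nefl* (-1.57 ± 0.532, 0.0839), *Mapk10* (-1.13 ± 0.424, 0.109), *Uchl1* (-0.96 ± 0.472, 0.200) and *Nefh* (-0.18 ± 0.536, 0.842) did not pass.

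Of all 18920 genes tested in GFP- cells, 0.418% were past the criteria as lower at P6 and 1.43% as higher, and 7.87% and 11.3% passed at 0.05, beside 2, 0, 5 and 0 of the 9 genes. Libraries did not overlap for 7 genes that were lower at P6 and 0 that were higher, beside 48.9% and 20.5% of all genes, and the median log2 fold change was -1.91, beside -0.02 for all genes. The difference between the P1 GFP- replicates weighs on each of these values. Without P1 GFP- replicate 2 *Nefh* was at 1.09 and *Uchl1* at 0.11. Over the 4 fits that each left out 1 library, *Prph* ran from -4.17 to -2.69 and *Gap43* from -2.58 to -1.37. *Ina* ran from -2.99 to -1.19, *Elavl4* from -2.64 to -0.91 and *Nefm* from -2.54 to -0.83. Which genes passed depended on the library left out.

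The difference between the replicates was measured gene by gene. In P1 GFP- cells replicate 2 was above replicate 1 for all 8 genes other than *Uchl1*, by 1.21 to 1.96 on the log2 scale (median 1.72), and *Uchl1* itself was 3.25-fold higher there. Over the 15403 genes with a mean of at least 1 CPM there, the median of this difference was 0.02, 4.09% of them were higher in replicate 2 by more than 1 and 0.792% were lower by more than 1. In P6 GFP+ cells replicate 2 was again above replicate 1 for all 8 (median 0.81, from 0.09 for *Mapk10* to 1.53 for *Nefh*), and in P6 GFP- cells it was below replicate 1 for all 8 (median -0.48). In P6 GFP+ cells 11.0% of all genes with such a mean were higher in replicate 2 by more than 1, and 45.4% were above the value of *Mapk10*. In P6 GFP- cells the median of all genes was 0.01, 1.01% were higher by more than 1 and 0.173% lower by more than 1. In P1 GFP+ cells 5 of the 8 were higher in replicate 2, with a median of 0.01.

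**Figure D3:**
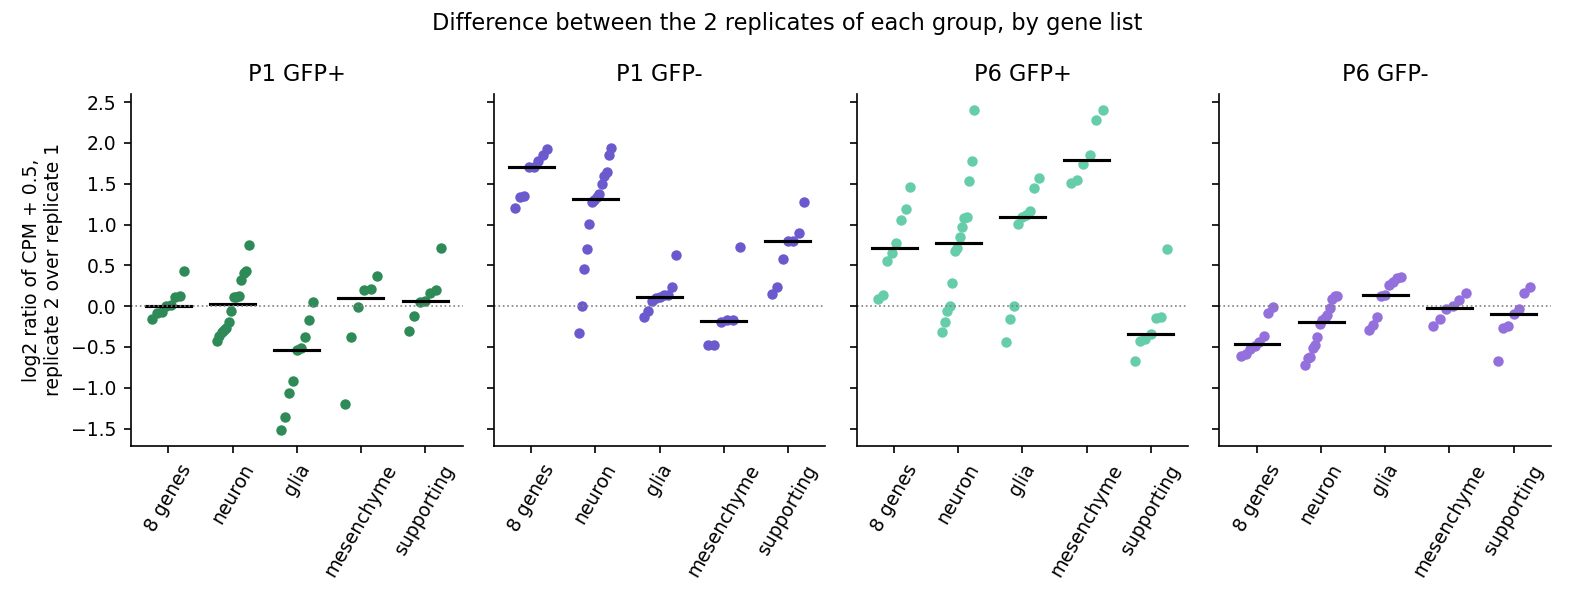
Log2 ratio of replicate 2 over replicate 1 in each group, computed on CPM plus 0.5, for the 8 genes without *Uchl1*, the 14 spiral ganglion (neuron), 9 glial, 6 mesenchyme and 7 supporting cell markers; points are genes, sorted within a list, and black lines are medians. In P1 GFP- cells the medians are 1.70 for the 8 genes and 1.31 for the neuron markers, 0.80 for the supporting cell markers, 0.11 for glia and -0.18 for mesenchyme.

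The counts of the genes were also set against that of *Nefl* in the same library. In GFP- cells *Nefh* was at 0.488 and 0.521 of the *Nefl* count at P1 and at 1.33 and 1.37 at P6, so that the replicates nearly coincided although *Nefl* itself differed 3.64-fold between the P1 libraries. In GFP+ cells the ratio was 0.232 and 0.232 at P1 and 0.804 and 1.55 at P6. The 4 P6 libraries thus lay above the 4 P1 libraries in both fractions, with a mean log2 difference of 1.84 (two-sided exact permutation test over the 36 arrangements of age within each fraction, p = 0.0556, the smallest they can give, so that no ratio can reach 0.05; adjusted p = 0.111 over 8 ratios). Relative to *Nefm* the difference was 2.45, with the same p. The *Nefm* to *Nefl* ratio was 2.18 and 2.34 in P1 GFP+, 1.71 and 1.54 in P1 GFP-, 1.18 and 1.38 in P6 GFP+ and 1.28 and 1.21 in P6 GFP- cells, lower at P6 in all libraries (log2 difference -0.60, exact permutation p = 0.0556, adjusted p = 0.111). These 2 genes are the ones whose exons overlap. *Elavl4* relative to *Nefl* was also lower at P6 without overlap (log2 difference -0.81, exact permutation p = 0.0556, adjusted p = 0.111), but relative to *Nefm* it overlapped (-0.21, exact permutation p = 0.278). *Mapk10* relative to *Nefl* was at a log2 difference of 0.53 (exact permutation p = 0.0556, adjusted p = 0.111). Using ratios was decided after the levels were seen, and no ratio passed after adjustment.

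*Prph* and *Ina* split by fraction in these ratios. In GFP- cells *Prph* was at 0.0935 and 0.0716 of *Nefl* at P1 and at 0.0168 and 0.0215 at P6, but in GFP+ cells it was at 0.0323 and 0.0276 and then at 0.0608 and 0.0483. *Ina* was at 0.841 and 0.804 of *Nefl* in P1 GFP-, 0.488 and 0.464 in P6 GFP-, 0.327 and 0.358 in P1 GFP+ and 0.331 and 0.504 in P6 GFP+ cells. Over all P6 against all P1 libraries both overlapped (log2 difference -0.62 for *Prph* and -0.27 for *Ina*).

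**Figure D4:**
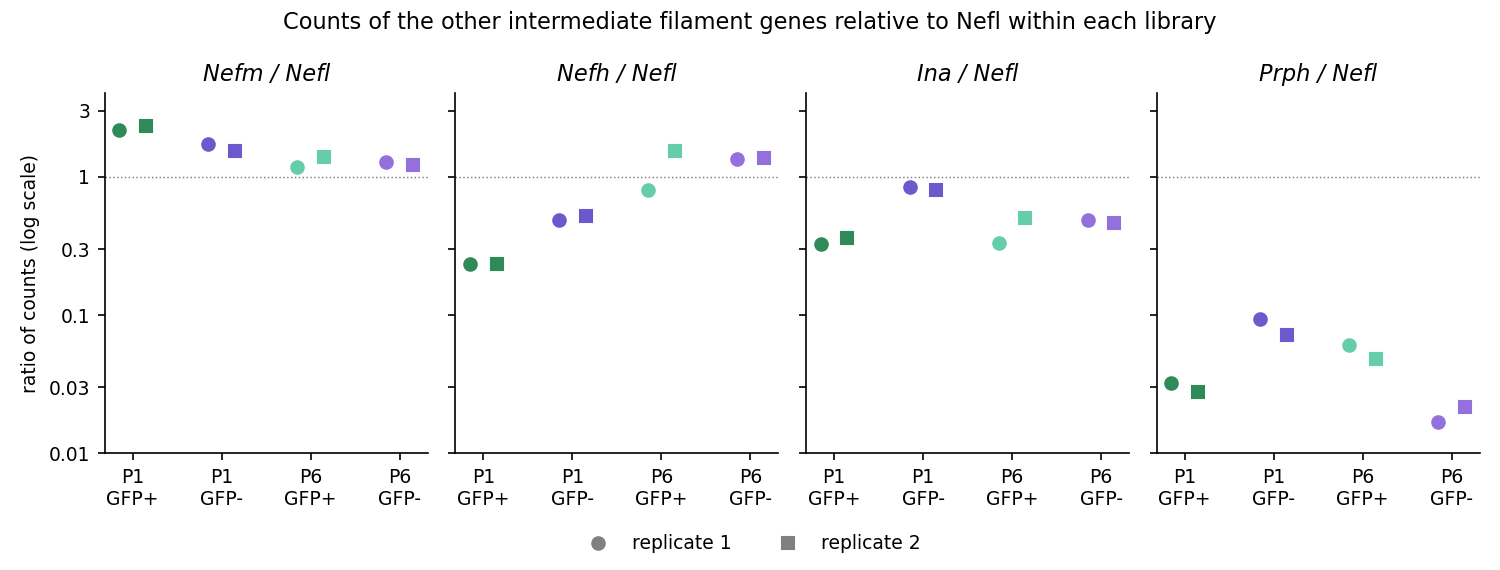
Count of *Nefm*, *Nefh*, *Ina* and *Prph* relative to *Nefl* within each library, on a log scale; circles and squares are replicates 1 and 2. *Nefh* lies at 0.232 to 0.521 in the P1 libraries and at 0.804 to 1.55 in the P6 libraries, and *Prph* is highest in the P1 GFP- libraries (0.0935 and 0.0716).

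The other genes of the same pathways were then counted, on lists of known members, and the genes named are the largest changes past the criteria and the paralogs. The counts below stand beside these shares of all genes tested at an adjusted p below 0.05. In GFP+ against GFP- cells 28.1% were lower and 25.5% higher at P1, and 17.9% and 15.5% at P6. With age 12.1% rose and 8.31% fell in GFP+ cells, and 11.3% rose and 7.87% fell in GFP- cells. Among 12 other intermediate filament genes at P1, 8 were lower in GFP+ cells and 2 higher at an adjusted p below 0.05 (median log2 fold change -1.81). The muscle filament *Des* (-5.10), the glial filament *Gfap* (-3.87) and the mesenchymal filament *Vim* (-3.11) were lower, and the epithelial keratins *Krt8* (3.87) and *Krt18* (3.46) higher. At P6 the counts were 5 lower and 2 higher (median -0.67), with *Krt8* at 3.95 and *Krt18* at 3.21. These 2 keratins were thus higher in GFP+ cells at both ages, as *Uchl1* was, and *Krt19*, the other keratin on the list, was lower at P1 (-1.88, adjusted p = 0.0150) and did not pass at P6 (-0.30, adjusted p = 0.557). With age, again at an adjusted p below 0.05, 2 of the 12 rose and 1 fell in GFP+ cells, and 1 rose and 3 fell in GFP- cells.

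Of 17 growth cone and axonal microtubule genes, 15 were matched by symbol in the annotation. *Map1b* and *Map2* were not matched, so their counts were not analysed here. At P1, 12 were lower in GFP+ cells and 2 higher (median -2.13). The largest were *Stmn4* (-4.29), a microtubule-destabilising stathmin, *Dcx* (-4.24), the microtubule-binding doublecortin of young neurons, and *Stmn2* (-3.88), another stathmin, while *Dpysl4*, a collapsin response mediator, was higher (2.35). At P6, 5 were lower and 4 higher (median -0.69), and *Stmn1*, also a stathmin, was past the criteria as higher (3.09). In GFP- cells 10 of the 15 fell from P1 to P6 and none rose (median -1.65), with *Dcx* past the criteria (-4.43, adjusted p = 0.00388). In GFP+ cells 4 rose and 4 fell, *Tubb3* (2.77) and *Stmn1* (2.53) rising and *Dpysl4* (-2.55) falling past the criteria. *Tubb3* and *Stmn2* stand on both this list and that of spiral ganglion markers.

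Of the 14 spiral ganglion markers, 10 were lower and 1 higher in GFP+ cells at P1 (13 tested, median -3.56), with *Ntrk3* (-5.31) and *Ntrk2* (-4.67), the neurotrophin receptors, and *Stmn2* (-3.88) the largest. *Slc17a6* (-3.69, adjusted p = 0.00366) and *Slc17a7* (-3.72, adjusted p = 0.00386) were lower as well. At P6, 3 were lower and 2 higher (12 tested, median -1.09). *Slc17a6* (-1.62, adjusted p = 0.0804) and *Slc17a7* (-1.41, adjusted p = 0.124) did not pass at P6. *Ntrk3* was at 78.0 and 62.3 CPM in P1 GFP- cells, higher in the replicate that was poorer in filament transcripts.

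The paralogs of the single genes were not all alike. Of the ELAV family, the neuronal *Elavl3* (-4.44, adjusted p = 0.00400) and *Elavl2* (-2.51, adjusted p = 0.0134) were lower in P1 GFP+ cells with *Elavl4*, and the ubiquitous *Elavl1* was at 0.10 (adjusted p = 0.347). At P6 *Elavl3* (-0.82, adjusted p = 0.185), *Elavl2* (-1.81, adjusted p = 0.0688) and *Elavl1* (-0.09, adjusted p = 0.657) did not pass, and in GFP- cells *Elavl3* fell with age (-2.72, adjusted p = 0.0244). Among the JNK kinases, *Mapk9* (JNK2) was higher in GFP+ cells at P1 (1.62, adjusted p = 4.9e-05) and P6 (1.72, adjusted p = 0.00212), opposite to *Mapk10* at P1, and *Mapk8* (JNK1) was lower at P1 (-0.34, adjusted p = 0.0198) and did not pass at P6 (-0.27, adjusted p = 0.204). Of 9 genes of the JNK pathway (the kinases, their scaffolds and upstream kinases, and the target *Jun*), 3 were higher and 4 lower at P1 and 2 and 0 at P6, none past the criteria. Over all genes tested 25.5% were higher and 28.1% lower at P1, and 15.5% and 17.9% at P6.

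*Uchl1* stood alone among the ubiquitin C-terminal hydrolases. *Uchl3* (0.31 at P1 and 0.56 at P6) and *Uchl5* (-0.17 and -0.02) did not pass at either age, and *Bap1* was lower in GFP+ cells at both (-0.48, adjusted p = 0.00433, and -0.66, adjusted p = 0.0192). With the ubiquitin genes, 1 of 6 was higher and 2 lower at P1, and 1 and 1 at P6. The shares over all genes tested were 25.5% and 28.1% at P1 and 15.5% and 17.9% at P6. Of 5 neurofilament kinases and activators, the one that passed was *Cdk5r1*, the activator of CDK5, lower in GFP+ cells at P1 (-1.87, adjusted p = 0.00358) and P6 (-1.15, adjusted p = 0.0187). It is named because it was the single gene of its list to pass, which was seen only afterwards.

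The genes whose profiles were most like those of the members were found among 15265 genes with a mean of at least 1 CPM, by Pearson's r of log2(CPM + 0.5) over the 8 libraries. These are descriptions over few libraries that share the neuronal difference between replicates, and 339 genes had an r above 0.9 with the mean profile of the 5 filament genes. The first were *Tmem151a* (r = 0.992), *Ppp1r1c* (0.991), *Elavl3* (0.991), *Pcnxl2* (0.991) and *Stmn2* (0.990). *Stmn2*, a neuronal stathmin, was at 30.8 and 112 CPM in P1 GFP- cells and 5.15 and 3.70 in P1 GFP+ cells. *Uchl1* had 1342 genes with an r above 0.9, led by *Grb7* (0.998), a receptor tyrosine kinase adaptor, *Pls1* (0.997), an actin-bundling plastin, *Cnksr1* (0.996), *Isl2* (0.996) and *Pard6b* (0.996), a polarity protein. *Grb7* was at 19.4 and 23.5 CPM in P1 GFP+, 2.19 and 5.96 in P1 GFP-, 18.4 and 13.8 in P6 GFP+ and 2.20 and 2.20 in P6 GFP- cells, and like *Uchl1* it was higher in P1 GFP- replicate 2 than in replicate 1.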

How the data were processed

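RNA-seq was analysed for GFP+ and GFP- cells of P1 and P6 *Lfng-GFP* cochleas, with 2 libraries in each of 4 groups, as named in the labels. The authors deposited raw counts per Ensembl gene without normalization, after paired-end sequencing of TruSeq v2 libraries, a kit without strand marking (an extra amplification of cDNA was kept for samples of fewer cells than these), and alignment to mm9 (NCBIM37). The submitters' processing notes name TopHat, HTSeq and DESeq 1.9.2, and the counting mode is not given in the sources used here. Counts on genes were 64.7% to 76.2% of what each table lists. Rows that name no gene (13.8% to 25.6% on no feature, 2.05% to 2.53% ambiguous, and multiple alignments) were left out, so overlapping and near-identical genes are undercounted.

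Symbols and exon lengths came from NCBIM37, which named 34391 of the 36536 genes. Each comparison was fitted on its 4 libraries with edgeR 4.0.16 in R 4.3.3 (filterByExpr with a minimum count of 10 and total of 15, TMM, quasi-likelihood test, Benjamini-Hochberg adjustment over all genes tested). Genes past the criteria had p and adjusted p below 0.01 and a fold change above 4, and genes that passed had an adjusted p below 0.05. The age by fraction term was fitted on all 8 libraries. The scripts were tested on simulated data. Ratios used SciPy 1.17.1, promoter sequences RefSeq (GRCm38.p6). The genes and lists were chosen with earlier results of these data known. All 9 genes were named, and of each list up to 3 genes per comparison and direction with the largest change past the criteria, the defining spiral ganglion markers, paralogs, and the 5 genes most alike in profile. Replicates differed by more than sampling noise (chi-square per degree of freedom 16.3 to 62.7). Alternatives were DESeq2 1.42.0 (size factors or test), library totals, no filter, all 8 libraries, a replicate block, other lengths and pseudocounts, and leaving out each library. A crossed block, *Nefm* as reference, arrangements across fractions and GFP+ percentages without single libraries were added after seeing the data.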

Additional observations from a re-analysis of the deposited data

Results flagged for a closer look

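The GFP+ to GFP- ratio of *Prph* differed between the ages: the log2 ratio was -4.09 at P1 and 0.44 at P6, a difference of 4.52 ± 0.810 in the edgeR fit over all 8 libraries (adjusted p = 0.0173). The P1 GFP- libraries, at 3.01 and 8.40 CPM, stood above the 6 others, which lay between 0.281 and 0.603 CPM on 7 to 27 counts each. Without single libraries the difference ranged from 3.68 to 5.10.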

How the results depend on the processing

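Counts below are of the 9 genes, "criteria" means p and adjusted p below 0.01 with a fold change above 4, and the cause of each change was not tested. At P6, 0 genes were past the criteria as lower in GFP+ cells with library totals, and 5 (DESeq2 test) and 6 (no filter) were lower at an adjusted p below 0.05. With age in GFP+ cells 1 gene was past the criteria as higher with the DESeq2 test or no filter, 1 was lower at 0.05 with no filter, and *Gap43* was at -0.0211 with library totals. With age in GFP- cells 1 gene was past the criteria as lower with library totals, all 8 libraries or a replicate block, and 8 were lower at 0.05 with no filter. The ratio differed between ages for 4 genes with the DESeq2 test and 8 with no filter. Shares over all genes were not computed for the alternative fits in this section, so such counts cannot be read as particular to the 9 genes. With no filter the standard error of *Nefl* at P1 was 0.140, against 0.581 in the main fit. With *Nefm* as reference the log2 differences of *Ina*, *Gap43* and *Uchl1* ratios were 0.34, 0.23 and 0.60, against -0.27, -0.37 and -0.01 with *Nefl*. Arranging age across fractions as well (70 arrangements) gave p = 0.0286 (exact permutation) for *Nefh*, *Nefm* and *Elavl4* against *Nefl*, with an adjusted p of 0.0762. The same values were given for *Nefl*, *Nefh* and *Mapk10* against *Nefm*.

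Library totals moved the median of all genes to -0.21 for age in GFP- cells and 0.16 for the age by fraction term. Replicate differences correlated at 0.0214 (P1), 0.0855 (P6), -0.0835 (GFP+ ages) and -0.277 (GFP- ages). These values cannot tell whether replicate numbers pair the samples, since fractions of the same sort need not share a difference in cell content. With the replicate block 7 genes were past the criteria as lower at P1, and 4 fell with age in GFP- cells at 0.05. A crossed block there, added after seeing the data, gave 8. *Nefh* was at 0.0872 and 0.0812 with these blocks.

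Leaving out 1 library (a lone sample is then assumed to vary like the other groups) gave these ranges. Shares over all genes were not computed for these fits. The counts therefore show how far the calls move and nothing particular to the 9 genes. At P1, 0 to 1 gene was past the criteria as higher and 1 to 8 as lower, with 5 to 8 lower at 0.05. At P6 these were 0 to 1, 0 to 3 and 0 to 6, and *Mapk10* ran from -0.26 to 0.21. With age in GFP+ cells 0 to 1 was past the criteria as higher, 0 to 3 were higher and 0 to 2 lower at 0.05, and *Nefl* ran from -0.17 to 0.36, *Ina* from -0.21 to 0.92 and *Gap43* from -0.39 to 0.37. With age in GFP- cells 0 to 6 were past the criteria as lower, 0 to 1 higher and 1 to 9 lower at 0.05, *Nefh* ran from -0.87 to 1.09 and *Uchl1* from -1.58 to 0.11. The age by fraction term passed for 0 to 6 genes, and for *Uchl1* ran from -0.53 to 1.12. With a pseudocount of 0.1 CPM, 3 of the 5 genes most like the filament genes were shared. Depth limits *Prph*, which had 7 to 27 counts outside the P1 GFP- libraries.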
